A study of Mus musculus with 8 samples.

Results

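The subject here is a split of the 8 arrays of a study of pancreatic islets into groups of 4 that cuts across its 2 mouse strains. Set p holds the arrays titled No1 and No2 of AKR/J and No5 and No6 of C57Bl/6J, and set q holds No3 and No4 of AKR/J and No7 and No8 of C57Bl/6J, so that all 8 of the 8 arrays belong to one set or the other. The labels give the sets no name, treatment or time. They were chosen by values of these same arrays, with Dbp, Nr1d2, Nfil3, Hsph1, Hspa8 and Rgs2 as the marker genes, and the difference between them, set q minus set p, is therefore a description and carries no test.

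All mice, of the inbred strains AKR/J and C57Bl/6J, had eaten a high-fat diet for 3 months, so the diet is common to both sets and to both strains. Age and sex are not given in the sources used here. Each RNA sample came from the pancreases of 2 mice, combined, and 1 Affymetrix expression array was run per sample, so an array is a pool of mice and the spread between arrays is that between pools. Each strain has 4 arrays, 2 in each set. Numbers of a sample run from 1 to 4 in AKR/J and from 5 to 8 in C57Bl/6J.

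Several genes with large differences between the sets, the markers among them, belong to a pair of well-known programmes. The circadian clock is a feedback loop in which BMAL1 (encoded by Arntl) with CLOCK or its relative NPAS2 drives the Per, Cry and Rev-erb genes, whose proteins then repress that drive or, for the Rev-erb proteins, repress Arntl itself. Output factors of the loop such as DBP and TEF activate target genes through the D-box, a site at which NFIL3 represses, and islet cells carry such a clock of their own. The heat shock response is the induction of cytosolic chaperones by the factor HSF1 when proteins misfold, and beta cells, which make secreted protein in large amounts, also need chaperones in the absence of heat.

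To show the regulatory sequence of these genes, the 250 bases before the transcription start, as RefSeq gives them on GRCm38.p6, were searched for motifs of the clock and of heat shock factors, on both strands. The motifs were the E-box CACGTG of the CLOCK factors, the D-box TTATGCAA with its variant TTATGTAA, the core TAGGTCA bound by ROR and Rev-erb proteins, the cAMP response element TGACGTCA, and the heat shock element as a pair of inverted units, head to head (GAANNTTC) or tail to tail (TTCNNGAA). Each heat shock pattern reads the same on both strands, and a stretch of alternating units can hold both. Of 20 clock, clock-output, heat shock, cold-response and marker genes that differed between the sets by the rule given further on, 19 had an entry, Hspa8 being the one without, and 5 held a motif. These 5 follow 5' to 3' on the strand of the gene, with the motif in capitals, as a description of their letters.
Tef: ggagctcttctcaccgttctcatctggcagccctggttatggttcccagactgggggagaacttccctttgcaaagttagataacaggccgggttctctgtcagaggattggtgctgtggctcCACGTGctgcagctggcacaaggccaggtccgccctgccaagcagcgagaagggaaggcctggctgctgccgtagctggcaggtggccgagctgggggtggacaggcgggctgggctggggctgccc
Nfil3: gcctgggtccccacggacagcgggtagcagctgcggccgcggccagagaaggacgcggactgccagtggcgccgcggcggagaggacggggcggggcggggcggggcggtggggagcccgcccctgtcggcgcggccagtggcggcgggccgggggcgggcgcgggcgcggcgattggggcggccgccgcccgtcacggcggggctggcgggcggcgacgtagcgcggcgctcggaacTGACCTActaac
Hspa1b: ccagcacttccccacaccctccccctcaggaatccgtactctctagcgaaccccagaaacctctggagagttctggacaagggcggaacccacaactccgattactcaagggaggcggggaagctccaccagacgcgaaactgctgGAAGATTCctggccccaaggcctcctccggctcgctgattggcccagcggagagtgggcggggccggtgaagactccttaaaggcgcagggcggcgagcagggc
Hsph1: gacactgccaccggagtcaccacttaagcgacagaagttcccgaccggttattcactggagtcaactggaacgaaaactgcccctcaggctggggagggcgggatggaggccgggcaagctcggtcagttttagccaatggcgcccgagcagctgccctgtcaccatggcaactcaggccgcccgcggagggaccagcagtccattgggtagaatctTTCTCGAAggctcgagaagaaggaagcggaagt
Dnaja1: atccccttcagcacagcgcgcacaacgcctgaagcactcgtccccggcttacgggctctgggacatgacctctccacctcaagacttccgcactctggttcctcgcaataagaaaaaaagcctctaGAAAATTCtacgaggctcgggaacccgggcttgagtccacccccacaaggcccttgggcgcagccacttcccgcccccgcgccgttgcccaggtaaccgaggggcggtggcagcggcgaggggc

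The Tef window is chr15:81802423-81802672 on the plus strand, and its E-box begins 127 bases before the start. In the Nfil3 window, chr13:52981040-52981289 on the minus strand, the ROR core lies on the opposite strand, at 12 bases before the start. The windows of Hspa1b (chr17:34959239-34959488, minus strand) and Dnaja1 (chr4:40722218-40722467, plus strand) hold the head-to-head pattern at 104 and 124 bases before the start. That of Hsph1 (chr5:149636337-149636586, minus strand) holds the tail-to-tail pattern at 33 bases. Over all 32851 promoters of the table, windows of the same length held the E-box in 6.02%, the D-box in 0.694%, its variant in 0.819%, the ROR core in 2.23%, the cAMP response element in 1.55% and the heat shock patterns in 6.69% and 7.17%. The share of all promoters that hold at least 1 of these motifs was not worked out, so nothing is read from the 5 of 19. The letters are a description of these windows, and a window without them says nothing about a factor.

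Values are log2 of the intensity in the deposited table, and a difference of 1 is a 2-fold change in intensity. A gene is represented by the brightest of its probe sets (short groups of probes for 1 transcript) among those detected on at least 4 of the 8 arrays, which left 10891 genes. A gene was counted as higher or lower in set q where both q arrays lay beyond both p arrays in each strain and the means differed by at least 1.5-fold in each strain. By this rule 44 genes were higher in q, which is 0.404% of the genes tested, and 46 were lower, which is 0.422%. The sets were chosen on this contrast, so nothing is read from these shares. In whole islets, fewer cells of a type and less RNA per cell cannot be told apart. Most genes lay close to 0, with 70.2% of them within 0.2 on the log2 scale and a median difference of 0.03.

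The smallest of the 2 strains' folds was 1.503 for Otoa and 1.504 for Srsf10, the genes just inside the rule among those higher and lower in q, and 1.499 for Cabcoco1 and 1.49 for Ccn2 just outside it. Without any minimum fold, 1078 genes were higher in q and 585 lower with no overlap in either strain. With a minimum of 2-fold there were 3 and 16. The size of the difference was larger in AKR/J for 42 of the 90 counted genes, 21 of the 44 higher and 21 of the 46 lower. Across all 20772 probe sets detected on at least 4 arrays, the sets accounted for 31.8% of the sum of squares within strains, for 1 of 6 degrees of freedom. Over these probe sets the AKR/J difference correlated with the C57Bl/6J difference at r = 0.33, a description across probe sets that come from the same arrays and normalization, and the sets were chosen on these values.

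**Figure D1:**
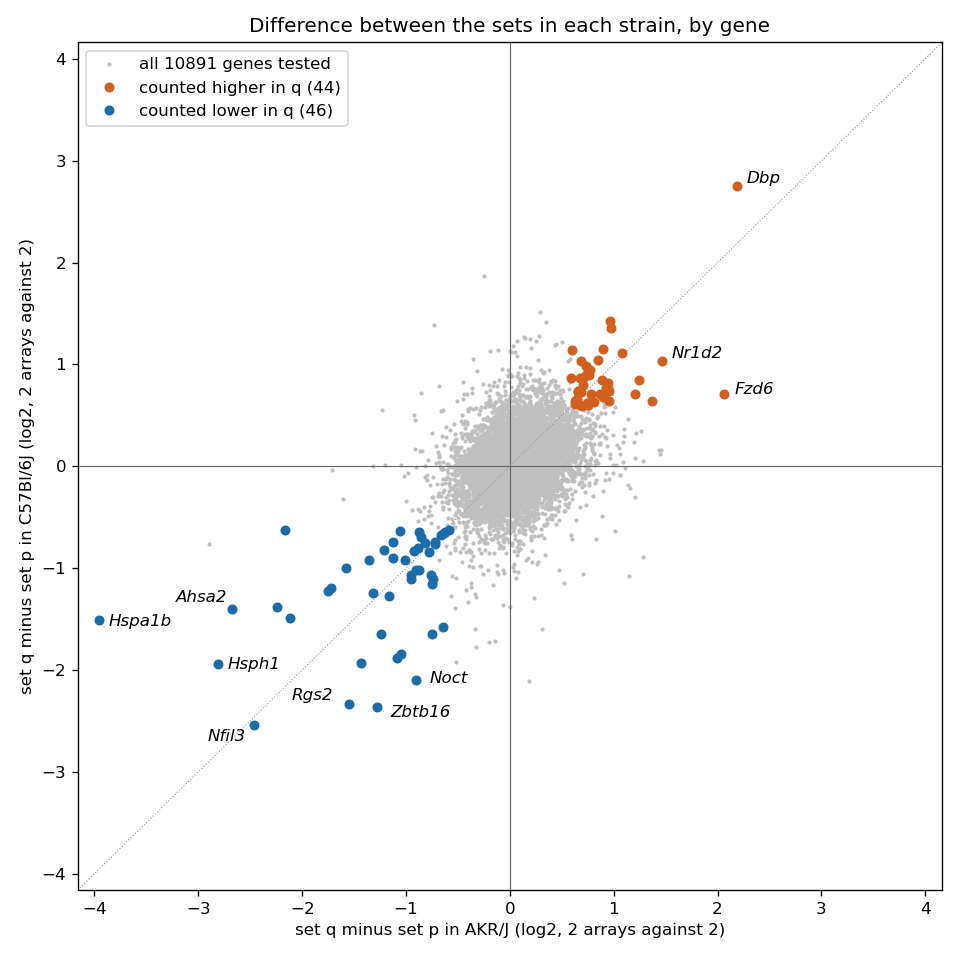
Difference between set q and set p in AKR/J (horizontal) and in C57Bl/6J (vertical), both log2, for each of 10891 genes (grey), with the 44 genes counted as higher in q in orange and the 46 lower in blue; each difference is a mean of 2 arrays minus a mean of 2 arrays and the dotted line marks equal differences. Dbp stands alone at the upper right (2.19 and 2.75), Nfil3 lies on the line at the lower left (-2.46 and -2.54), and Hspa1b (-3.96 and -1.51) and Hsph1 (-2.81 and -1.94) lie further out in AKR/J than in C57Bl/6J.

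Genes of the clock and its outputs stood at both ends of the list. Dbp, a transcription factor that is among the most strongly rhythmic outputs of the clock, was 5.53-fold higher in q, and Nfil3, the repressor that competes with it, was 5.65-fold lower. Tef, a relative of Dbp, and Nr1d2, which encodes REV-ERB beta, went with Dbp, and Arntl and Npas2, of the positive arm, went with Nfil3. The Per genes, the Cry genes and Clock did not meet the rule.

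Arntl and Npas2, of the positive arm, were counted as lower in q. Arntl measured 4.86, 6.14, 6.32 and 5.77 on arrays 1, 2, 5 and 6 of set p and 4.33, 4.34, 5.21 and 4.33 on arrays 3, 4, 7 and 8 of set q, a difference of -1.22 with an SD of 0.58 among arrays of one strain and set. The sets did not overlap within a strain, but array 1 of set p was below array 7 of set q, and array 1 was the lowest of the p arrays. A second probe set of Arntl, near background at 2.11 to 2.72, differed by -0.15. Npas2 measured 4.63, 4.48, 4.79 and 4.32 in p against 3.60, 4.02, 3.95 and 2.86 in q, a difference of -0.95 ± 0.45 (SD within strain and set). All 4 q arrays were below all 4 p arrays, and the probe set was detected on 3 arrays of p and 1 of q. The second signal deposited for each array, called the per-array signal here, gave -1.55. Clock itself differed by -0.14.

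Of the repressors, Nr1d2 (probe set 1416958_at) measured 9.14, 8.93, 9.47 and 9.88 on the p arrays and 10.44, 10.55, 10.49 and 10.92 on the q arrays. Every q array was above every p array, and the difference of 1.25 ± 0.22 (SD within strain and set) is 2.37-fold. Its other tested probe set gave 1.13, which was 1.83 in AKR/J against 0.44 in C57Bl/6J, under 1.5-fold there. Nr1d1, which encodes REV-ERB alpha, was detected on 2 of the 8 arrays and so was not among the genes tested; its values gave a difference of 0.80. Thra, the thyroid hormone receptor gene, was counted as higher in q at 0.72, and its other tested probe set gave 0.19. RefSeq places Thra over the end of Nr1d1 with 1075 shared bases. Which of the overlapping transcripts the counted Thra probe set read was not tested.

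Per3, a member of the Period repressor family, measured 4.30, 4.56, 4.02 and 4.85 in p and 5.61, 5.08, 4.81 and 5.24 in q. Its difference of 0.75 ± 0.39 (0.29 by the per-array signals) came with an overlap in C57Bl/6J, where array 6 of set p lay above array 7 of set q. Per2 differed by 0.49, 0.78 in AKR/J against 0.21 in C57Bl/6J, and Per1 by 0.21, with opposite signs in the strains. Of the Cryptochrome repressors, Cry1 differed by -0.99 in AKR/J against -0.07 in C57Bl/6J, and Cry2 by -0.21 and -1.02. The Cry pair therefore had its larger difference in a different strain for each gene. Rora, an activator of Arntl, differed by 0.30, and the other tested members of the core list (Bhlhe40, Csnk1d and Csnk1e) by -0.16 to 0.10.

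Among the outputs, Dbp (probe set 1438211_s_at) measured 8.43, 8.24, 7.65 and 8.45 on the p arrays and 10.46, 10.58, 10.39 and 11.22 on the q arrays. The lowest q array was well above the highest p array, and the difference was 2.47 ± 0.42 (SD within strain and set); the second probe set gave 2.26. Tef measured 7.60, 6.91, 7.19 and 7.61 in p and 8.16, 8.05, 8.25 and 8.65 in q, a difference of 0.95 ± 0.32. All q arrays were above all p arrays for this gene too. The mean over all of its tested probe sets was 0.54. Nfil3 (probe set 1418932_at) measured 8.64, 8.55, 8.84 and 8.97 in p and 6.25, 6.03, 6.81 and 5.93 in q. Here the sets lay apart in the other direction, by -2.50 ± 0.33, with near-equal differences of -2.46 in AKR/J against -2.54 in C57Bl/6J.

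Tspan4, a tetraspanin on the clock-output list, was 2.06-fold higher in q (1.05), and Herpud1, a component of protein degradation at the endoplasmic reticulum on the same list, was 1.55-fold lower (-0.64). Hlf, the third relative of Dbp and Tef, differed by 0.63 with overlapping arrays. Usp2 (0.63) and Wee1 (0.59), a deubiquitinase and a mitotic kinase, did not overlap in either strain and stayed under the fold in at least 1 strain. The same held in the other direction for Tars (-0.44) and Tsc22d3 (-0.37). Without a minimum fold, 5 outputs were higher and 4 lower with no overlap, beside 9.9% and 5.37% of all genes. The remaining outputs differed by -0.39 to 0.53. In all, 1 of the 13 tested core genes was counted as higher and 2 as lower, and 3 of the 20 tested outputs as higher and 2 as lower, beside 0.404% and 0.422% of all genes. The counted genes include Nr1d2, Dbp and Nfil3, markers with which the sets were chosen, so these counts are a description. Median differences were 0.05 for the core list and 0.09 for the outputs, beside 0.03 over all genes, with members on both sides of 0. Of the core list Nr1d1, Rorb, Bhlhe41, Ciart, Fbxl21 and Timeless, and of the outputs Gys2, were too rarely detected to be tested.

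**Figure D2:**
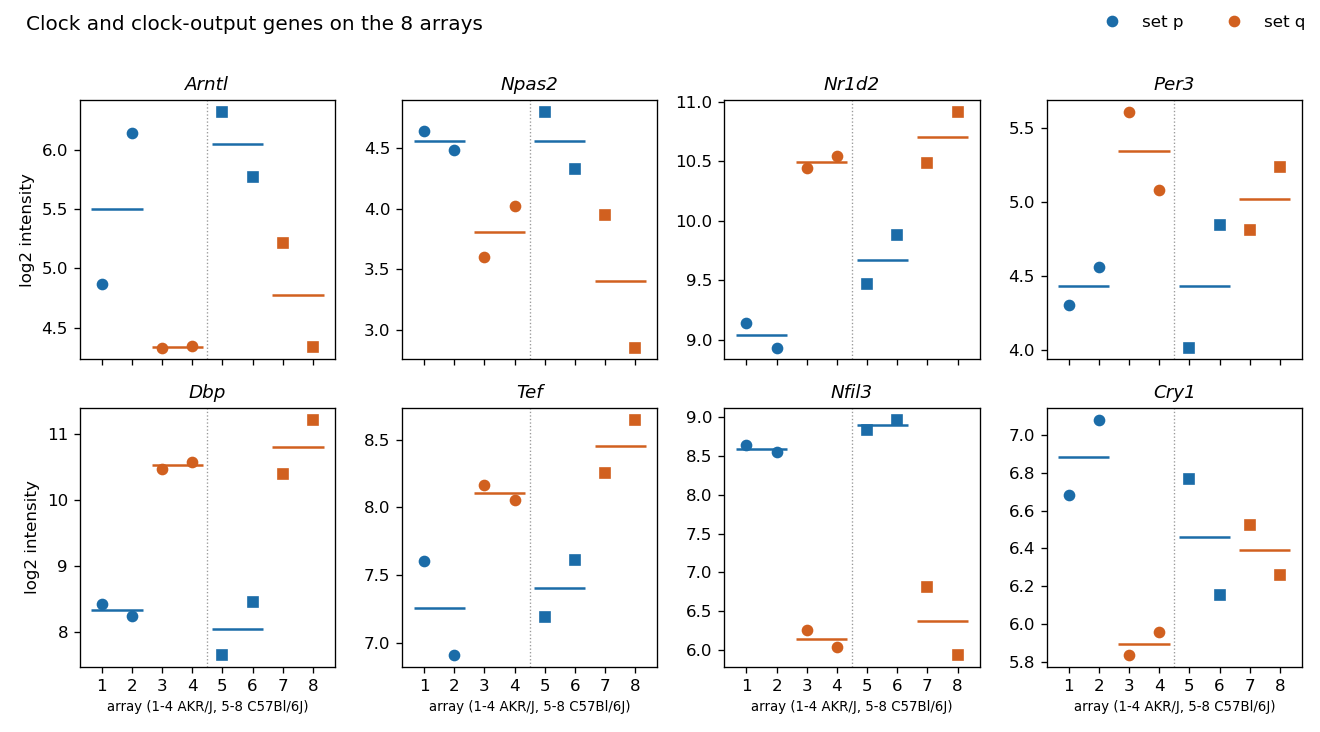
Log2 intensity of 8 clock and clock-output genes on each array, with arrays 1 to 4 from AKR/J (circles) and 5 to 8 from C57Bl/6J (squares), set p in blue, set q in orange and a bar at the mean of each strain and set. Nr1d2, Dbp and Tef have all q arrays above all p arrays, Npas2 and Nfil3 have them all below, and Per3 and Cry1 overlap in C57Bl/6J.

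Of 36 tested heat shock genes, 10 were counted as lower in set q and none as higher, beside 0.422% and 0.404% of all genes, and 29 had a negative difference and 7 a positive one, beside 41.6% of all genes with a negative one. The sets were chosen with genes of this list in view, so these counts are a description. The list's median was -0.47 (-0.53 in AKR/J against -0.47 in C57Bl/6J) beside 0.03 over all genes. The 36 intensities summed to 52500 to 73300 on the p arrays and 36100 to 39800 on the q arrays, without overlap. Arrays 1 and 5, both of set p, carried the highest levels: the median deviation of the list from each gene's strain mean was 0.44 on array 1 and 0.29 on array 5, against 0.04 and 0.09 on arrays 2 and 6 and -0.10, -0.32, -0.21 and -0.18 on arrays 3, 4, 7 and 8. Without arrays 1 and 5 the list's median was -0.24 and 6 members were counted as lower.

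The chaperones of the Hspa family hold unfolded proteins with the help of ATP. Hspa1b, an inducible member, measured 12.21, 9.70, 10.25 and 8.26 on the p arrays and 6.61, 7.38, 7.85 and 7.65 on the q arrays. The p arrays were all above the q arrays but were far apart among themselves, array 1 exceeding array 2 and array 5 exceeding array 6, so the difference of -2.73 has an SD of 1.16 within strain and set. Its near-identical neighbour Hspa1a, whose RNA the probes may not tell apart, measured 10.38, 7.31, 7.77 and 6.29 in p and 5.60, 6.30, 6.13 and 6.41 in q. Its arrays overlapped in C57Bl/6J. Hspa8 (probe set 1420623_x_at), the constitutive member, measured 13.76, 13.41, 13.72 and 13.58 in p and 12.28, 12.47, 12.81 and 12.83 in q. The sets of this gene lay apart by -1.02 ± 0.15, 2.03-fold; a pair of further probe sets gave -0.98 and -0.83, and a dim one 0.08.

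Hsph1 (probe set 1423566_a_at), a nucleotide exchange factor that resets the Hspa chaperones, measured 11.88, 11.26, 11.51 and 10.91 in p and 8.53, 8.98, 9.32 and 9.22 in q. The lowest p array exceeded the highest q array by a wide margin, and the difference was -2.38 ± 0.34, or 5.19-fold; the other tested probe set gave -2.30. Hspa4l, a gene of the same exchange-factor family, differed by -0.95 ± 0.29. Dnaja1, a co-chaperone that hands substrates to Hspa proteins, measured 12.47, 11.87, 11.78 and 11.54 in p and 10.43, 10.75, 10.83 and 10.49 in q. The sets did not overlap, and the difference was -1.29 ± 0.28. Dnajb1, an inducible co-chaperone, differed by -1.61 in AKR/J against -0.32 in C57Bl/6J and was not counted.

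Co-chaperones of HSP90, the chaperone of kinases and steroid receptors, were counted in part. Chordc1, one of them, measured 10.79, 9.99, 10.34 and 9.79 in p and 8.44, 8.89, 9.03 and 8.71 in q, a difference of -1.46 ± 0.39. Stip1, which bridges the Hspa and HSP90 machines, measured 8.56, 8.22, 8.61 and 8.19 in p and 6.92, 7.23, 7.24 and 7.06 in q, a difference of -1.28 ± 0.23. Neither gene had a q array above a p array. The HSP90 co-chaperone Fkbp4 (-0.50) was not counted, nor was St13, a co-chaperone of Hspa proteins (-0.25, or -0.69 by its other tested probe set). Ahsa1, an activator of HSP90, differed by -0.94 and Cacybp, a co-chaperone and ubiquitin ligase adaptor, by -0.76. Ahsa2, a relative of Ahsa1 that was not on the list, was 4.11-fold lower (-2.04 ± 0.58). Hsp90aa1 itself differed by -0.63 by its brightest probe set, which stayed under 1.5-fold in AKR/J, and by -0.93 and -1.05 by the others.

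The small chaperone Hspb8 was counted as lower (-0.96 ± 0.46; -0.40 by a brighter probe set that was called detected on 0 arrays), whereas Hspb1 (-0.67) overlapped. In mitochondria Hspd1, the chaperonin, measured 11.97, 11.64, 12.04 and 11.90 in p and 11.32, 11.24, 11.38 and 11.37 in q. Its sets lay apart in both strains at -0.56 ± 0.13, less than 1.5-fold in AKR/J. Its partner Hspe1 differed by -0.44, and the mitochondrial Hspa9 by -0.13. Members with a positive difference included Hspb6 (0.61), Hspa2 (0.49) and Cryab (0.32), which were not counted. Cirbp, an RNA-binding protein known to be induced by mild cold and the only tested gene of its list, measured 8.01, 8.25, 7.66 and 8.30 in p and 9.13, 8.92, 8.71 and 8.93 in q. Every q array was above every p array, and the difference was 0.87 ± 0.27.

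**Figure D3:**
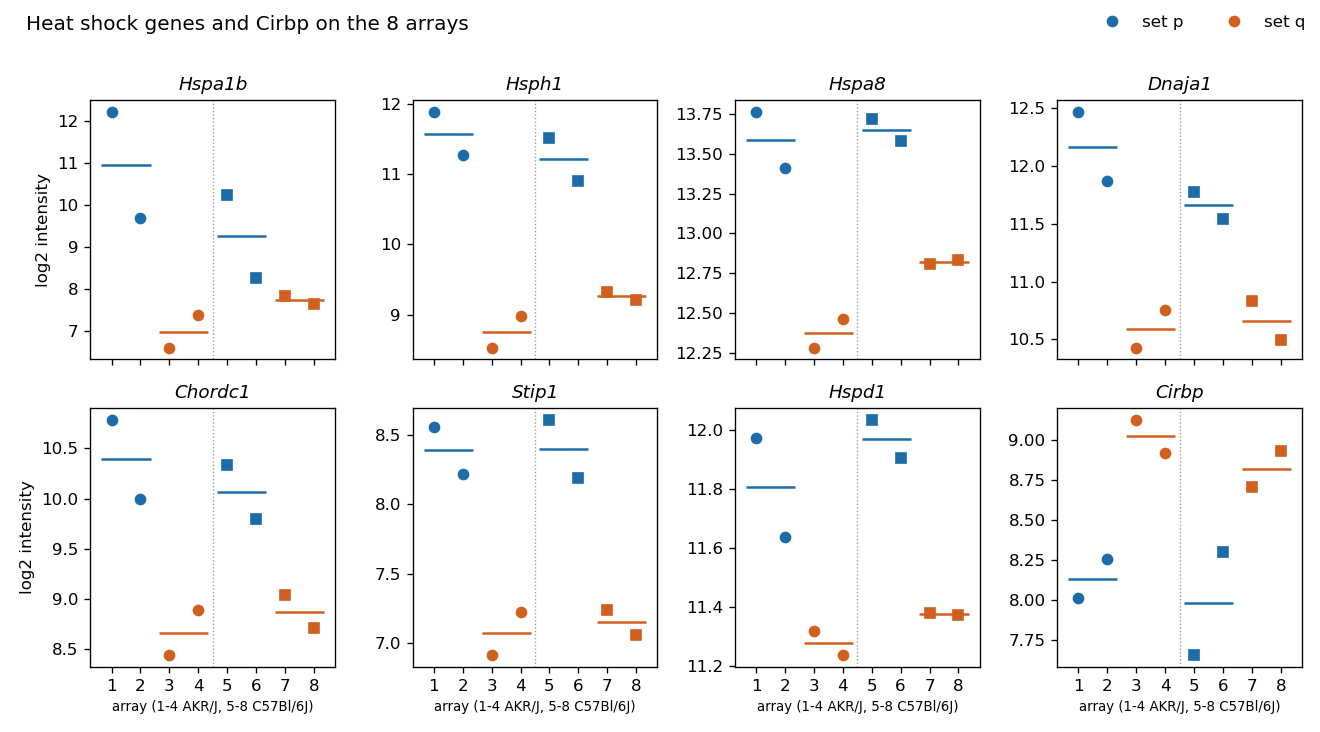
Log2 intensity of 7 heat shock genes and Cirbp on each array (1 to 4 AKR/J, circles; 5 to 8 C57Bl/6J, squares), set p in blue, set q in orange, bars at the mean of each strain and set. In each of the 7 heat shock genes the p arrays lie above the q arrays, with arrays 1 and 5 the highest of their pairs, and for Cirbp the order of the sets is turned.

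Genes of signalling and of other stress responses were also among those lower in set q. Rgs2 (probe set 1419248_at), which dampens signalling by G protein-coupled receptors and is switched on early after stimulation, measured 12.06, 11.49, 13.44 and 13.47 in p and 10.03, 10.41, 10.08 and 12.17 in q. Array 8 of set q exceeded both AKR/J arrays of set p, so the sets did not overlap within a strain but did across strains, and the difference was -1.94 ± 0.78. Gadd45b, an early growth-arrest gene, differed by -0.92 ± 0.58 by its brightest probe set. Its 3 tested probe sets ranged from -0.92 to -0.0076. Rgs2 and Gadd45b were the 2 counted genes among 35 tested immediate-early genes, a list with a median of -0.13. Both were lower, beside 0.422% of all genes. Rgs2 is a marker with which the sets were chosen, so this count is a description.

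On a list of genes induced by glucocorticoids, 4 of 17 tested genes were counted as lower and none as higher (0.422% and 0.404% of all genes), and the median was -0.37 (-0.31 in AKR/J against -0.56 in C57Bl/6J). Zbtb16, a zinc finger factor, measured 3.38, 3.94, 4.78 and 4.68 in p and 2.38, 2.38, 2.36 and 2.38 in q. The q values were nearly the same on all 4 arrays, with the probe set detected on 4 of 4 arrays of p and 1 of 4 of q, and the difference was -1.82 ± 0.20. Cdkn1a, an inhibitor of cyclin-dependent kinases, measured 8.53, 8.17, 8.75 and 8.90 in p and 6.99, 7.53, 6.88 and 7.0 in q, a difference of -1.49 ± 0.24. Both sets were well separated in both strains. Errfi1, a feedback inhibitor of EGF receptors, differed by -1.44 ± 0.45 and Ddit4, an inhibitor of mTORC1 that is on the hypoxia list too, by -0.78 ± 0.32.

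Of 26 tested genes of the unfolded protein response, the programme that answers misfolding in the endoplasmic reticulum, 4 were counted as lower (0.422% of all genes) and 23 had a negative difference (41.6% of all genes), with a median of -0.27. Chac1, a glutathione-degrading enzyme downstream of ATF4, measured 9.31, 9.0, 9.02 and 8.74 in p and 6.57, 7.52, 7.60 and 7.17 in q, a difference of -1.80 ± 0.39. Trib3, a pseudokinase of the same branch, measured 6.44, 6.08, 6.25 and 5.95 in p and 4.18, 4.82, 4.83 and 4.91 in q, a difference of -1.49 ± 0.28. In both genes all p arrays were above all q arrays, and by the per-array signals the differences were -1.12 and -0.96. Creld2, a chaperone-like protein of the endoplasmic reticulum, differed by -1.01 and Herpud1, named above as a clock output, by -0.64. The summed intensity of the list was 106000 to 130000 in p and 92300 to 112000 in q, which overlap.

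Outside the lists, Noct, an enzyme encoded by a rhythmically expressed gene, measured 10.19, 10.44, 10.72 and 10.88 in p and 9.33, 9.49, 8.74 and 8.66 in q, a difference of -1.50 ± 0.12. Slc5a3, an inositol transporter that answers osmotic stress, differed by -1.81 ± 0.36, and Slc10a6, a steroid sulfate transporter detected on 2 of 4 q arrays, by -1.68 ± 0.60. Among genes higher in q, Fzd6, a Wnt receptor, measured 4.37, 4.30, 5.03 and 5.52 in p and 6.49, 6.31, 6.06 and 5.91 in q. Its sets did not overlap, and the difference of 1.38 was 2.06 in AKR/J against 0.71 in C57Bl/6J. Tnfrsf11b, the decoy receptor osteoprotegerin, differed by 1.10, and Sostdc1, an extracellular antagonist of BMP and Wnt signals, by 1.03 (0.60 by the per-array signals). Slc2a1, a glucose transporter, differed by 0.70, and by 0.27 by its other tested probe set. Slc2a1 and Ddit4 were the counted genes among 15 tested hypoxia genes, 1 in each direction (0.404% and 0.422% of all genes), and the list's median was 0.05.

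Pax6os1, an antisense transcript of the islet factor gene Pax6 with which it shares 1435 bases in RefSeq, measured 6.15, 6.18, 6.03 and 6.10 in p and 7.10, 7.15, 7.56 and 7.42 in q. The spread within strain and set, 0.06, was the smallest among the 12 genes with the largest difference in this direction, beside a difference of 1.19. Ppp1r14a, an inhibitor of myosin phosphatase, was 2.25-fold higher in q and detected on 1 of 4 p arrays, so its values in set p are close to background, and the per-array signals gave 1.78. Efhd2, a calcium-binding protein, differed by 1.01 ± 0.83, and its lowest value, 3.41 on array 1, was far below the 5.71 of array 2. The other tested probe set of Efhd2 gave 0.22. Lrrc3b (0.96, or 0.29 by the per-array signals) and Lst1 (0.88), a gene of myeloid cells, complete the 12 largest differences among genes higher in q. Lst1 was detected on 1 of 4 p arrays and 4 of 4 q arrays, so its values in set p are close to background too.

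**Figure D4:**
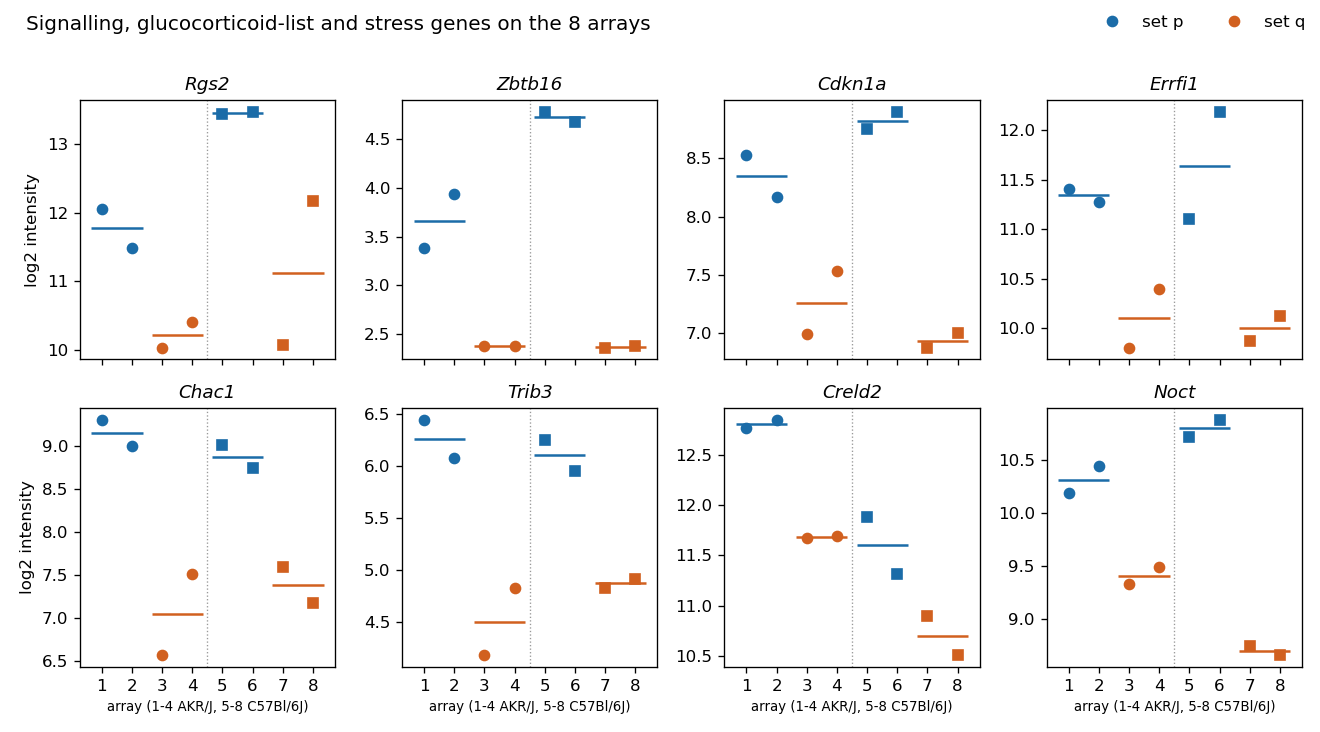
Log2 intensity of 8 genes lower in set q that belong to signalling, glucocorticoid and stress lists or, for Noct, to none, on each array (1 to 4 AKR/J, circles; 5 to 8 C57Bl/6J, squares), set p in blue, set q in orange, bars at the mean of each strain and set. Within each strain no q array reaches a p array, while for Rgs2 array 8 (12.17) and for Creld2 arrays 3 and 4 (11.68 and 11.70) of set q lie as high as p arrays of the other strain.

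Markers of the tissue and of cells that come along with islets held no gene counted between the sets. The 6 tested islet hormone genes had a median of -0.04 and summed to 173000 to 210000 in p and 169000 to 207000 in q, and the 23 beta cell genes had a median of -0.04. Ins2, Iapp and Gcg lay among the 11 brightest probe sets of every array, where the signal may be saturated (Gcg has the same value on arrays 1, 7 and 8), so a difference near 0 is no measure of steady hormone levels there. Ppy, the hormone of PP cells, differed by -0.44 and Gipr, an incretin receptor, by -0.49, nearly all of it in C57Bl/6J (-1.03). Of 26 tested acinar genes, which mark the enzyme-making tissue around islets, 23 had a positive difference, with a median of 0.12 (0.19 in AKR/J against 0.03 in C57Bl/6J) and sums of 315000 to 547000 in p and 349000 to 562000 in q. The lists of duct (6 tested), macrophage (17), lymphocyte (7), endothelial (15), mesenchymal (17), fat cell (3) and nerve (5) genes had medians of -0.22 to 0.10. Summed macrophage intensities were 2850 to 5380 in p and 2830 to 6290 in q. Without a minimum fold, genes higher in q with no overlap in either strain were 7 of 26 acinar, 3 of 17 macrophage and 3 of 15 endothelial genes, beside 9.9% of all genes, and none of these lists had such a gene lower, beside 5.37%. The macrophage genes Aif1 (0.49) and Csf1r (0.40) were among them. The T cell markers Cd3d, Cd3e and Cd3g and the 5 red cell genes with a probe set were detected on too few arrays to be tested. The part of these cells in the differences between the sets was not tested.

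Signs of RNA and array quality were outside the choice of the sets and could be tested, by exact permutation of the sets within strain, 2-sided, over 36 arrangements. The smallest p that this design allows is 0.0556, so it cannot reach 0.05. Detected probe sets made up 43.7% to 48.1% per array in p and 45.2% to 47.0% in q (exact p = 1.0). Within strains the sets did not overlap, in opposite directions. AKR/J had 43.7% and 43.7% in p against 47.0% and 45.2% in q, and C57Bl/6J 48.1% and 48.0% against 46.4% and 45.7%. The permutation used the mean of the strain differences, in which these cancel, so it does not measure them. The control probe sets at the 3' and 5' ends of a transcript had a log2 ratio that differed between the sets by 0.07 for actin (exact p = 0.389, adjusted over the 5 measures 0.486) and 0.11 for Gapdh (exact p = 0.167, adjusted 0.417). Hybridisation spike-ins differed by -0.07 (exact p = 0.278, adjusted 0.463) and the poly-A control probe sets by -0.06 (exact p = 0.167, adjusted 0.417). None of the 10 tested reference genes or the 30 genes of oxidative phosphorylation was counted, with medians of -0.02 and -0.05.

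**Figure D5:**
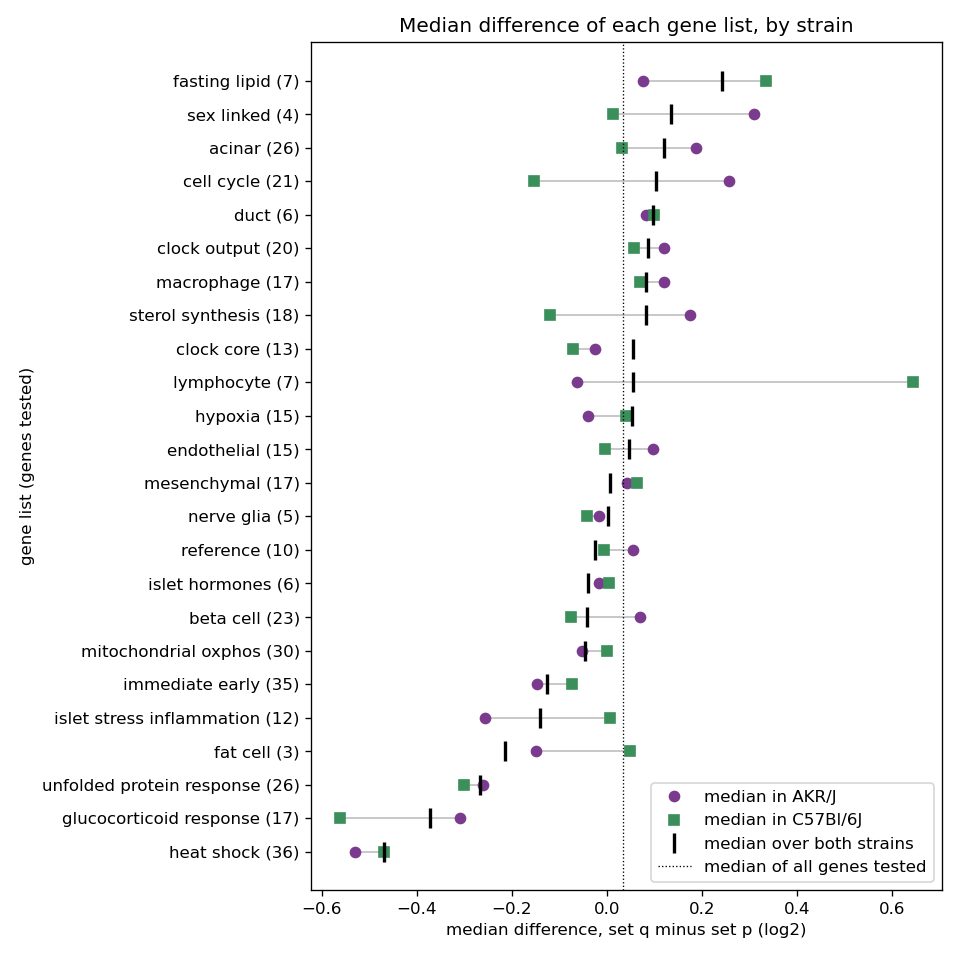
Median over the tested genes of each list of the difference set q minus set p (log2), in AKR/J (circles), in C57Bl/6J (squares) and as the mean of the strains (bars), with the number of genes tested in parentheses and the median of all genes as a dotted line. Heat shock (-0.47), glucocorticoid (-0.37) and unfolded protein response (-0.27) lists lie lowest in both strains, hormone and beta cell lists are near 0, and the lymphocyte list, of 7 genes, parts most widely between strains (-0.06 and 0.64).

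The difference between the sets in AKR/J was set against that in C57Bl/6J with limma, as the interaction of strain and set. The sets were chosen across both strains from the same values, a choice that favours genes alike in both, so a low count here does not show that the strains were alike. No gene passed an adjusted p of 0.05 (0.0% of 10891), the smallest adjusted p was 0.396, and 767 genes had an unadjusted p under 0.05; without the filter on detection 6 genes passed. Each strain and set holds 2 arrays, and in a simulation with the spread of these arrays the fit recovered 71% of interactions of 4-fold. Among genes described here, strain differences of this kind were seen for Noct (-0.91 in AKR/J against -2.10 in C57Bl/6J, interaction 1.19 with a standard error of 0.18), for Fzd6 (interaction 1.36 with a standard error of 0.25) and for Cry2 (0.81 with a standard error of 0.16). The interaction of Hspa1b, -2.45, had a standard error of 1.32. None of these genes passed in the limma fit (adjusted p = 0.396 for Noct, 0.437 for Fzd6, 0.4725 for Cry2 and 0.703 for Hspa1b), so the values are a description.

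The sets bear on the comparison of the strains, for which the study was made, through the spread. Each strain has 2 arrays in either set, so the estimated strain difference is the same with or without the set in the model, and only its error changes. With set as a covariate limma called 2201 genes at an adjusted p under 0.05 (20.2% of genes; 1047 with the higher mean in AKR/J and 1154 in C57Bl/6J), against 1777 without it (16.3%). Both fits shared 1736 genes, 465 were called only with the set and 41 only without. A set chosen on the spread makes the p-values of the first fit too small. Without array 4 the fit with the set called 1375 genes, and without arrays 1 and 5 together it called 975.

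For the genes counted between the sets, which were selected for a large set difference, a smaller residual with the set in the model follows from the selection, so only the fit without the set is given. That fit leaves the set difference of these genes in the residual, which makes their p-values too large. A gene not called there is therefore not shown to be alike in the strains. Hspb8 averaged 8.30 in AKR/J against 5.92 in C57Bl/6J (limma adjusted p = 0.00754) and Efhd2 5.24 and 8.80 (adjusted p = 0.00475), and both were called. Creld2, at 12.25 and 11.15 (adjusted p = 0.095), Sostdc1, at 4.48 and 5.58 (adjusted p = 0.0889), and Tnfrsf11b, at 5.36 and 6.34 (adjusted p = 0.147), were not. The strain differences of Dbp and Nfil3 were 0.00 and -0.27 and were not called either (adjusted p = 0.999 and 0.876).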

How the data were processed

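Total RNA (5 µg per array) of islets from AKR/J and C57Bl/6J mice was profiled on 8 Affymetrix arrays of 45101 probe sets, 4 per strain, grouped by the strain in the titles. The value table holds linear intensity values made by the authors with GCRMA, per the submitters' processing notes, its version not given in the sources used here; GCRMA corrects background by probe sequence and normalizes across arrays. The quantiles of the arrays lay within 0.0904 (log2) of each other, and the deposited values, 1.53 to 69278, were log2-transformed without further normalization. The deposited per-array files hold a second signal intensity and a detection p-value, per the file headers, and a probe set was detected where that p was under 0.05. The number of arrays limits the precision.

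The 64 control probe sets were left out. The platform annotation gives 34945 others 1 gene name, 932 more than 1 and 9160 no name, and 34741 matched a RefSeq gene, which changed 0 symbols. Of all 45037 non-control probe sets, 20772 were detected on at least 4 arrays and entered the fit, 18491 of them with 1 gene name, and each of the 10891 genes these name was taken at its brightest probe set. Set q minus set p is the mean of the differences in the strains. The strain by set interaction and the strain difference were fitted on the 20772 probe sets with limma 3.58.1 (lmFit, eBayes; R 4.3.3) with Benjamini-Hochberg adjusted p-values called under 0.05. SDs within strain and set pool the 4 pairs of arrays. P-values measure the spread between pools of mice.

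The sets, the marker genes and the gene lists were chosen with earlier results of these data known. Named are the 6 markers, the clock, clock-output and heat shock lists, the 12 largest differences in each direction among counted genes and up to 3 members of each other list; Thra was added after its value was seen. On simulated data of 20772 probe sets, with 200 changed, the fits recovered 71% of 4-fold interactions, with 12 false calls, and 79% of 2-fold strain differences, with 13. Alternatives were other filters, the per-array signals (floor at the 5th percentile, quantile normalized), further quantile normalization, median centring, other probe sets, other folds, eBayes with trend and robust, and arrays left out. Figures used Python 3.11.15 with matplotlib 3.10.9.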

Additional observations from a re-analysis of the deposited data

Results flagged for a closer look

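In 13 of 290 strain groups of 4 arrays tested over the named genes, 1 array stood apart by Dixon's criterion, which chance meets in about 1 of 20 groups. In AKR/J these were the lowest array of Efhd2 (3.41, next 5.71) and of Hspa9 (9.84) and the highest arrays of Lonrf3 (2.72), Hspa13 (11.45), Hsf2 (2.58), Tspan8 (6.65), Ms4a1 (3.64, next 1.83) and Pparg (4.72, next 3.77). In C57Bl/6J they were the highest arrays of Hspa1a (7.77, next 6.41), Insig1 (9.36) and Pgk1 (10.60) and the lowest arrays of Hspa9 (10.18) and Il6 (3.87). In 3 of the 145 named genes, by the brightest probe set, all arrays of set q lay on one side of set p in AKR/J and on the other in C57Bl/6J. The share of all genes with this pattern was not worked out, so nothing is read from the count. The difference between the strains was 0.76 for Csnk1e (0.22 and -0.54), -0.64 for Marveld1 (-0.24 and 0.40) and 0.86 for Idi1 (0.70 and -0.16), with AKR/J first. The other tested probe set went the same way in both strains for Csnk1e (0.68 and 0.12) and for Marveld1 (0.06 and 0.30). In the limma interaction fit, on values from which the sets were chosen, none passed (adjusted p = 0.651 for Csnk1e, 0.589 for Marveld1 and 0.646 for Idi1).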

How the results depend on the processing

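The median of all probe sets moved by under 0.1 on the log2 scale under each scaling. With the per-array signals 75 genes were counted as higher in q, 19 of them among the original 44, and 27 of the 46 lower genes were kept. A minimum of 2-fold gave 3 higher and 16 lower genes and one of 1.2-fold gave 457 and 214. The interaction called 6 genes without the filter on detection and 0 under every other alternative run. The strain difference with set as covariate called 1375 to 1979 genes with 1 array left out, lowest without AKR/J array 4, and 975 without arrays 1 and 5, an alternative chosen after seeing the data, which leaves 1 array of each strain in set p and kept 29 of the 44 higher and 31 of the 46 lower genes. Leaving out 1 array gave 48 to 61 higher and 39 to 56 lower genes. Of 648 recomputed differences of the 41 named genes that were counted, 628 stayed within 1 SD of arrays within strain and set, 20 moved further and 0 changed sign. Where arrays were left out, the arithmetic and the counting rule allowed neither a move beyond 1 SD nor a change of sign. Those recomputed differences are therefore no check, and all moves came from the other alternatives. Where values moved, the cause was not tested. No paired analysis was possible because the strains share no sample number. Genes near background, such as Zbtb16 and Ppp1r14a, have differences that the dim end of the scale limits.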

Other observations

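Metabolic lists held no gene counted between the sets. Of 18 tested genes of sterol synthesis 11 were higher and 7 lower in set q, with medians of 0.17 in AKR/J against -0.12 in C57Bl/6J, and Insig1, which holds back the sterol sensor, differed by 0.33 with near-equal values in the strains (0.34 and 0.33). Of 7 tested genes of fasting and lipid use the median was 0.24, with Acot2, a mitochondrial thioesterase, at 0.49 and Plin2, a lipid droplet protein, at -0.34. Txnip, a glucose-induced inhibitor of thioredoxin on the list of islet stress genes, differed by -0.64 (-0.69 in AKR/J against -0.60 in C57Bl/6J).

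Of 21 tested cell cycle genes the median was 0.26 in AKR/J against -0.15 in C57Bl/6J. The median deviation of these genes from their strain means was -0.09, -0.16, 0.39 and -0.07 on arrays 1 to 4. On arrays 5 to 8 it was 0.23, -0.14, 0.05 and -0.19. Array 3 of set q and array 5 of set p thus stood highest in their strains, apart from the other array of their set. Top2a, which untangles DNA in dividing cells, differed by 1.16 in AKR/J against -0.21 in C57Bl/6J, and Mcm4, part of the replicative helicase, by 0.78 and 0.08. Whether these strains differ was not tested on values outside the choice of the sets. The lowest array of the AKR/J lymphocyte list and its highest were both in set p: the median deviation of its 7 tested genes from their strain means was 1.06 on array 1 and -0.58 on array 2.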
